A study of Homo sapiens with 12 samples.

Results

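Laminins are the large secreted proteins from which basement membranes are built, and each one is a trimer of an α, a β and a γ chain encoded by separate genes. The laminin chain genes described here are LAMA1, LAMA2, LAMA3, LAMA4 and LAMA5 (α chains), LAMB1, LAMB2 and LAMB3 (β chains) and LAMC1 (the γ1 chain). They are 9 of the 58051 genes in the count tables, were found by symbol, and were listed with earlier results of these data known. They were followed by RNA-seq in 786-O, A-498 and ACHN, 3 human lines of renal cell carcinoma, with 12 libraries in all. In 786-O (1 library a group) and A-498 (2 libraries a group), cells received a control mimic or a miR-29 mimic, which is a synthetic stand-in for the mature miRNA. In ACHN (3 libraries a group), cells received a miR-29 inhibitor, which blocks the endogenous miRNA, or a control inhibitor. All groups were transfected at 10 nM and collected 48 h later, and no other genetic change was introduced in any of them. The mimic was therefore never given to ACHN, nor the inhibitor to 786-O or A-498.

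Chains assemble inside the cell before secretion: a β and a γ chain pair, and an α chain joins and decides when the trimer leaves. A trimer is named by its chains, so that laminin-511 holds α5, β1 and γ1. In the kidney the tubules sit on basement membranes that hold α1 and α5 laminins, the glomerulus uses α5 with β2, and the α4 chain is typical of vessels and mesenchymal cells. The α3 and β3 chains form the laminin that anchors skin and other epithelia together with a γ chain that was not analysed here. Cells hold on to laminins through integrins and dystroglycan. A miRNA such as miR-29 lowers the level of a transcript by pairing of its seed, bases 2 to 8, with a site in the 3′ untranslated region (3′UTR).

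The 3 mature miR-29 sequences (RefSeq, GRCh38.p14) are shown because their shared seed, in capitals, defines the site searched for in the laminin transcripts. The seed was the same in the 3, and they differ from one another only outside it. On the minus strand, miR-29a lies at chr7:130876748-130876769, miR-29b at chr7:130877467-130877489 and again at chr1:207802450-207802472, and miR-29c at chr1:207801865-207801886. The labels name both reagents only as miR-29, and the study's supplement calls the mimic one of miR-29b. The study's methods also print a mature sequence for the mimic, which has the same seed but equals none of the 3 shown here.
hsa-miR-29a-3p: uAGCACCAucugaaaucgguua
hsa-miR-29b-3p: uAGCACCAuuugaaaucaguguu
hsa-miR-29c-3p: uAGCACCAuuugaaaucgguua

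Matches to this seed were sought on the transcript strand of the 3′UTRs in GENCODE v44 (TGGTGCT, which pairs with bases 2 to 8, and TGGTGCTA, which adds the A opposite base 1). Of the 9 genes, only LAMA2 and LAMC1 held a match, 1 each and each of the longer 8-base kind, and no shorter 6-base match was found in the other 7. The windows below are shown with the 8 matched bases in capitals, on the plus strand of GRCh38.
LAMA2: attctttctgtattcagaTGGTGCTAattc
LAMC1: aactattatctgacacacTGGTGCTAttaa
The LAMA2 window lies at chr6:129516461-129516490, in the last exon, and its match starts 132 bases into a 3′UTR of 219 bases that all 6 coding isoforms share. The LAMC1 window lies at chr1:183144235-183144264, also in the last exon, and its match starts 1463 bases into a 3′UTR of 2802 bases. Over the longest 3′UTR of 19248 genes, 3.35% held an 8-base match and 15% held TGGTGCT with or without the A, with a median 3′UTR of 1228.5 bases. The 3′UTRs of the 7 genes with no match ran from 112 bases (LAMB2) to 1574 bases (LAMA3), and those of LAMA1, LAMA5, LAMB1, LAMB2 and LAMB3 had 401 bases or fewer. In coding sequence, examined after the expression values were known, 6 of 9 genes held TGGTGCT with or without the A, against 21.9% of 19228 genes. The laminin coding sequences are long, 3519 to 11088 bases against a median of 1305, and the share was not adjusted for this.

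Reads in genes numbered 39919554 to 70027392 a library, of which 38210 to 204928 fell in the 9 laminin genes. Counts came from bulk RNA, so fewer cells that use a gene and less RNA a cell cannot be told apart. The renal lineage marker PAX8 (4169 to 28521 reads) and the epithelial keratin KRT8 (21279 to 100816 reads) were detected in every library. PAX2, also of the renal lineage, had 69 to 2067 reads, and in A-498 only 69 to 79. The endothelial markers PECAM1, CDH5 and VWF stayed at 2 to 14, 1 to 8 and 0 to 15 reads. The leukocyte markers PTPRC, CD3E and CD68 stayed at 1 to 15, 0 to 1 and 0 to 15 reads. The 3 fibroblast markers DCN, LUM and PDGFRB, summed, moved with the treatments: 1018 against 428 reads in control and mimic 786-O, 88 to 105 against 34 to 45 in A-498, and 75 to 80 against 180 to 213 in control and inhibitor ACHN. DCN and LUM were each at 0 in 2 libraries. Each sum rested mainly on 1 gene. In 786-O this was LUM, with 785 reads in the control and 276 with the mimic. For A-498 it was PDGFRB, at 86 to 99 against 31 to 38 reads, and likewise in ACHN, at 62 to 64 against 138 to 165. Marker counts are raw and not scaled for depth. The muscle markers DES and MYH3, summed, gave 71 against 38 reads in control and mimic 786-O, 281 to 288 against 119 to 131 in A-498 and 48 to 60 against 54 to 77 in ACHN, with DES at 0 in 2 libraries. Whether cells of either kind had a part in the laminin values was not tested.

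The γ1 chain, which every trimer considered here needs, had the largest estimated log2 change of the laminin genes in each line. It stood well apart only in ACHN. In A-498 LAMC1 was at -0.97 and LAMA4 at -0.93, and in 786-O, with 1 library a group, LAMC1 was at -1.62 and LAMB3 at -1.50. These differences between genes were not tested. Levels are given as CPM, which are read counts scaled to the total in genes of each library and to a TMM scaling factor estimated within each line. LAMC1 (ENSG00000135862, chromosome 1, 183023420 to 183145592, plus strand) stood at 636 CPM in control 786-O and at 206 CPM with the mimic. In A-498 it was at 527 and 525 CPM in the control libraries and at 266 and 270 CPM with the mimic. In ACHN it was at 732, 767 and 752 CPM in the controls and at 1489.8, 1556 and 1589 CPM with the inhibitor. The groups were far apart in each line, below the controls with the mimic and above them with the inhibitor. On the log2 scale LAMC1 fell by 0.97 in A-498 (SE 0.0345, adjusted p = 2.52e-11 in the edgeR quasi-likelihood test) and rose by 1.04 in ACHN (SE 0.0343, adjusted p = 1.62e-13). In 786-O, which had no replicates and so no test, its ratio of mimic to control was 0.325, with a 95% interval of 0.317 to 0.332 that covers counting error only.

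**Figure D1:**
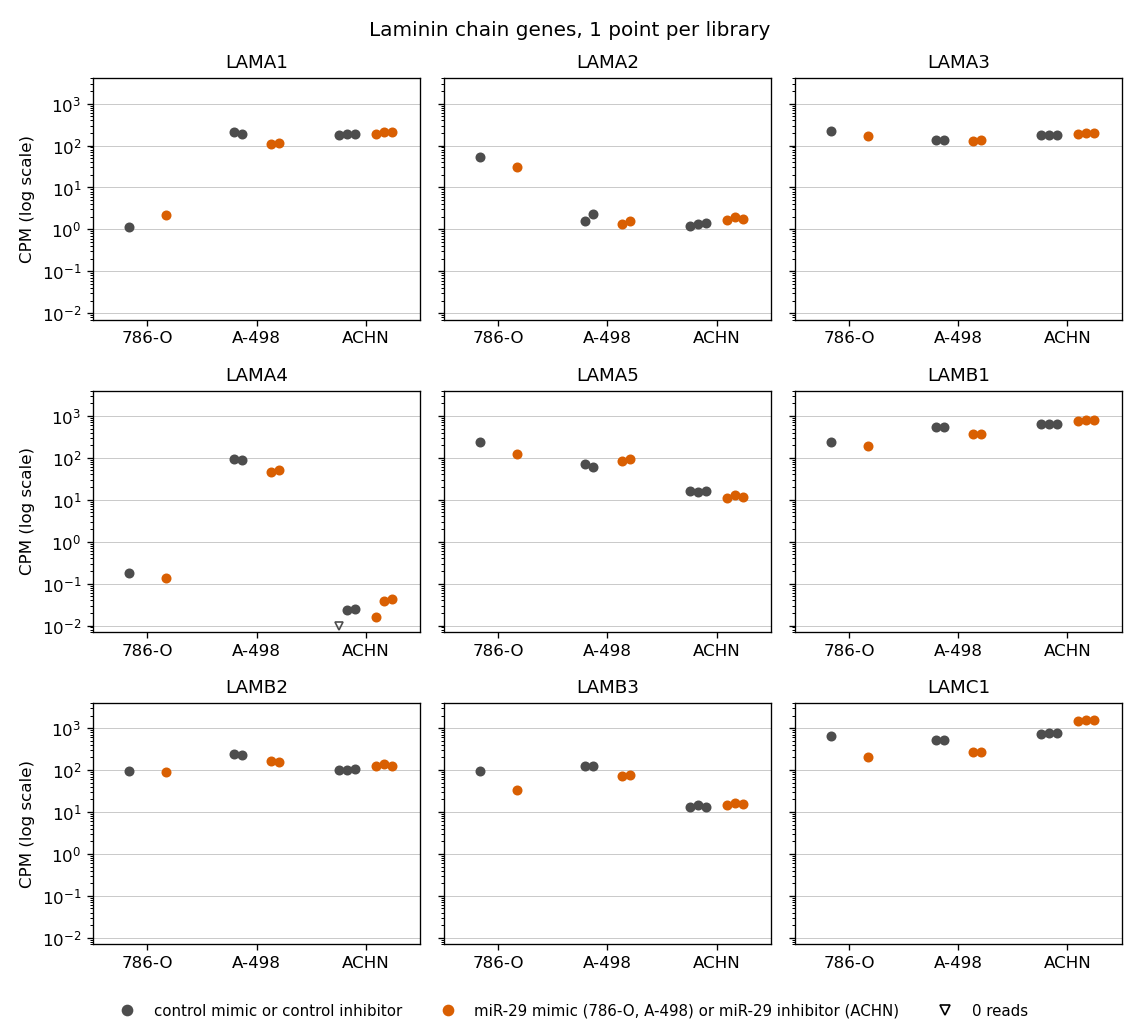
Level of each laminin chain gene in CPM (log axis), 1 point per library, with control libraries in grey and mimic or inhibitor libraries in orange; the open triangle marks 0 reads and is drawn at the foot of the axis. LAMC1 is lower in every mimic library and higher in every inhibitor library than in that line's controls, while LAMA4 is near 0 in 786-O and ACHN and LAMA1 is near 1 to 2 CPM in 786-O.

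Among the β chains, LAMB1 (ENSG00000091136, chromosome 7, 107923799 to 108003213), the general β partner, moved in the same directions as LAMC1 but by less. Its level was 241 CPM in control and 196 CPM in mimic 786-O. In A-498 it was 547 and 534 CPM in the controls and 375 CPM in both mimic libraries. In ACHN it was 625, 636 and 654 CPM in the controls and 766, 787 and 809 CPM with the inhibitor. No control library overlapped a treated library of its own line. LAMB1 fell by 0.53 on the log2 scale in A-498 (SE 0.0341, adjusted p = 1.13e-08 by edgeR) and rose by 0.30 in ACHN (SE 0.0353, adjusted p = 2.75e-06), and its ratio in 786-O was 0.813 (counting interval 0.791 to 0.837).

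LAMB2 (ENSG00000172037, chromosome 3, 49121114 to 49133118), the β chain of the glomerulus and of neuromuscular junctions, was at 94.7 and 89.9 CPM in control and mimic 786-O. Its A-498 libraries gave 246 and 229 CPM in the controls against 162 and 158 CPM with the mimic. Its ACHN libraries gave 98.2, 103 and 106 CPM in the controls against 124, 137 and 122 CPM with the inhibitor. The groups were separate in both replicated lines. The log2 change was -0.57 in A-498 (SE 0.0416, adjusted p = 4.31e-08 by edgeR) and 0.32 in ACHN (SE 0.0522, adjusted p = 0.000129). In 786-O the ratio was 0.949 (counting interval 0.909 to 0.991), the smallest shift of the 9 genes in that line.

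LAMB3 (ENSG00000196878, chromosome 1, 209614870 to 209652425), the β chain of the epithelial anchoring laminin, was far lower in ACHN than in the other lines. It was at 93.1 CPM in control 786-O and 33.0 CPM with the mimic, a ratio of 0.354 (counting interval 0.334 to 0.376). The A-498 controls were at 125 and 122 CPM and the mimic libraries at 72.0 and 74.3 CPM, a log2 change of -0.76 (SE 0.0423, edgeR adjusted p = 2.58e-09). In ACHN the gene was low, at 13.4, 14.3 and 13.3 CPM in the controls and 14.8, 16.3 and 15.6 CPM with the inhibitor. The ACHN groups did not overlap, and the log2 change of 0.18 (SE 0.0665) had an edgeR adjusted p of 0.0426 that rose above 0.05 under most alternatives, to 0.0816 with DESeq2.

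The α chains did not move together. LAMA5 (ENSG00000130702, chromosome 20, 62307955 to 62367312), the most widely used α chain of adult epithelia, went up in A-498 and down in ACHN. Its A-498 levels were 69.3 and 61.2 CPM in the controls and 85.0 and 95.8 CPM with the mimic. In ACHN it was at 16.2, 15.1 and 15.8 CPM in the controls and at 10.7, 13 and 11.3 CPM with the inhibitor. The groups were separate in both lines, in the direction opposite to that of LAMC1. The log2 change was 0.47 in A-498 (SE 0.0638, adjusted p = 2.35e-05 by edgeR) and -0.43 in ACHN (SE 0.0758, adjusted p = 0.000233). In 786-O, by contrast, the mimic library was lower, at 124 CPM against 241 CPM in the control, a ratio of 0.513 (counting interval 0.497 to 0.530).

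LAMA1 (ENSG00000101680, chromosome 18, 6941742 to 7117797), an α chain of embryonic and tubular basement membranes, was at 206 and 192 CPM in control A-498 and at 108 and 112 CPM with the mimic. It fell by 0.85 on the log2 scale there (SE 0.0432, edgeR adjusted p = 9.62e-10). In ACHN it was at 183, 185 and 191 CPM in the controls and at 193, 206 and 207 CPM with the inhibitor, and the difference of 0.12 (SE 0.0434) was not called (adjusted p = 0.0505). In 786-O the gene was close to silent, with 50 reads in the control and 101 with the mimic, a ratio of 2.01 (counting interval 1.42 to 2.88). This was the 1 laminin gene of the 9 that was above its control in mimic 786-O.

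LAMA4 (ENSG00000112769, chromosome 6, 112107931 to 112254939), the vessel and mesenchymal α chain, was above 1 CPM in A-498 alone of the 3 lines. It was at 93.1 and 90.9 CPM in control A-498 and at 46.7 and 49.8 CPM with the mimic, and it fell by 0.93 on the log2 scale (SE 0.0479, edgeR adjusted p = 1.11e-09). In 786-O it had 8 and 6 reads in control and mimic, a ratio of 0.746 with a counting interval of 0.213 to 2.45. In ACHN it had 0, 1 and 1 reads in the controls and 1, 2 and 3 with the inhibitor, did not pass the filter on low counts, and was not tested. The 2 A-498 controls together held 10366 reads against 2 in the 3 ACHN controls, a depth-adjusted ratio of 5838 (counting interval 1616 to 48209).

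LAMA3 differed little between the groups of A-498 and of ACHN, and LAMA2 was low in both lines but not in 786-O. LAMA3 (ENSG00000053747, chromosome 18, 23689453 to 23956222), the α chain of the epithelial anchoring laminin, lay between 132 and 136 CPM in the 4 A-498 libraries, where the groups overlapped and the log2 difference was -0.02 (SE 0.0385, edgeR adjusted p = 0.765), or 0.06 with scaling to library size. In ACHN it ranged from 178 to 182 CPM in the controls and from 187 to 201 CPM with the inhibitor, a rise of 0.13 (SE 0.0433, adjusted p = 0.0329) that was lost without any of the 3 controls (adjusted p of 0.121, 0.0922 and 0.0944) or without inhibitor 3 (0.101). Its 786-O ratio was 0.763 (counting interval 0.740 to 0.786). LAMA2 (ENSG00000196569, chromosome 6, 128883138 to 129516566), the muscle and nerve α chain, was at 54.1 CPM in control and 30.8 CPM in mimic 786-O, a ratio of 0.568 (counting interval 0.532 to 0.608). In A-498 and ACHN it had only 57 to 135 reads a library. Its A-498 groups overlapped (log2 difference -0.41, SE 0.191, edgeR adjusted p = 0.0904). In ACHN it rose by 0.44 (SE 0.149, adjusted p = 0.0308), a call lost with DESeq2 (adjusted p = 0.126) and without control 1 (0.138), control 2 (0.0661) or inhibitor 2 (0.1).

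The 9 genes were listed with earlier results of these data known. The shares over all genes therefore give scale and are not an independent test. Counted over the 9 genes, 6 were called lower and 1 higher in A-498, where 27.0% of the 19676 genes tested were called lower and 25.5% higher. With scaling to library size alone the background became 22.1% lower and 31.5% higher, and the laminin counts stayed at 6 and 1. The median log2 change of the 9 was -0.57, against 0.0045 over all genes tested. In ACHN 6 of 8 tested were called higher and 1 lower, where 17.3% of the 17904 genes tested were called higher and 14.4% lower. The median there was 0.24 against 0.0038, and the count called higher went down to 3 without control 1 or without control 2. In 786-O 8 of 9 genes had a ratio under 1, as did 51.0% of the 20370 genes with enough reads. LAMB3 and LAMC1 were at or below 0.5-fold, as were 8.96% of genes, on the log2 ratio with a prior count of 2 that these counts use. By that measure none of the 9 was at 2-fold higher or more, as 6.73% of genes were. LAMA1 came nearest, at a log2 ratio of 0.98, though its depth-scaled ratio without a prior count (101 and 50 reads) was 2.01. Of the 8 genes tested in both replicated lines, LAMB1, LAMB2, LAMB3 and LAMC1 were called higher in ACHN and lower in A-498, a pattern shown by 10.5% of 16708 genes. The reverse pattern was shown by LAMA5 alone of the 8, and by 7.37% of genes.

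**Figure D2:**
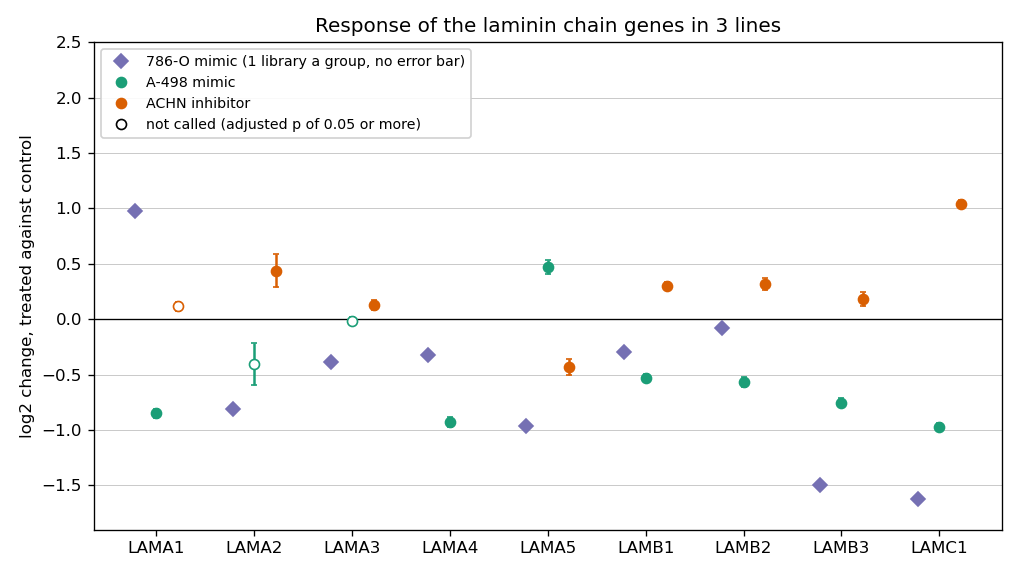
Log2 change of each laminin chain gene, treated against control, in 786-O (mimic, diamonds, 1 library a group and no error), A-498 (mimic, green) and ACHN (inhibitor, orange), with bars for the SE of the edgeR estimate and open points for changes not called; LAMA4 is absent for ACHN because it was not tested. All 3 β genes and LAMC1 lie below 0 in the mimic lines and above 0 in ACHN, whereas LAMA5 rises in A-498 and is lower in the other two, and LAMA1 is above its control in 786-O (50 to 101 reads) but lower in A-498.

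The mimic lines were also compared directly, as a difference of log2 changes in 786-O minus A-498 (edgeR, 22587 genes tested, 13.2% called lower and 16.5% called higher). Of the 9 genes 4 were called lower in this difference and 3 higher. The widest were LAMA1, at 1.90 (adjusted p = 2.01e-06), and LAMA5, at -1.39 (adjusted p = 2.16e-09). The spread in this test came from the A-498 replicates only, since 786-O had none. With the coefficient of variation between replicates set at 0.2 instead of the estimated spread, 0 of the 9 were called and LAMA1 and LAMA5 kept an unadjusted p under 0.05 (adjusted p of 0.0527 and 0.172).

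Control A-498 and control ACHN differed widely in laminin make-up (edgeR, 19689 genes tested, 38.7% called lower and 41.0% called higher in A-498). The lines received different control reagents, so line and reagent cannot be told apart. In A-498 5 of the 9 genes were called higher and 3 lower, and LAMA4 passed the filter on low counts only through A-498. LAMB3 was higher in A-498 by 3.12 on the log2 scale (adjusted p = 4.69e-21), LAMA5 by 2.0 (adjusted p = 8.20e-17) and LAMB2 by 1.16 (adjusted p = 8.03e-16). LAMC1 was lower in A-498, with a log2 difference of -0.56 (adjusted p = 1.15e-11), with LAMA3 at -0.47 (adjusted p = 3.33e-10) and LAMB1 at -0.29 (adjusted p = 3.24e-07). LAMA1, at 0.04, was not called (adjusted p = 0.359). LAMA2, at 0.51 (SE 0.190), was called (adjusted p = 0.0201), but not with DESeq2 (0.135), without A-498 control 3 (0.414) or without ACHN control 1 (0.0683).

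To compare chains with each other, CPM was divided by transcript length. The length used was that of the merged exons of all isoforms, and the longest coding transcript served as the alternative. The choice matters for LAMB1, whose merged exons (18.592 kb) are 3.29 times as long as its longest coding transcript, and for LAMA2 (2.65 times), and for the other 7 genes the factor was 1.07 to 1.66. Both lengths came from GENCODE v44, whereas the study counted reads on a different Ensembl release. Merged exons may thus include sequence that was not counted, and this was not checked. Per kb of merged exon LAMC1 led in the controls of all 3 lines, at 75.2, 62.2 and 88.8 CPM per kb in 786-O, A-498 and ACHN. Per kb of coding transcript LAMB1 stood above it in A-498 (95.7 against 66.3) and in ACHN (113 against 94.6), and not in 786-O (42.7 against 80.2). In control A-498 the order by merged exons after LAMC1 was LAMB2, LAMB1, LAMB3, LAMA1, LAMA3, LAMA4, LAMA5 and LAMA2, and no neighbours in it overlapped between libraries. By coding transcript LAMA4 and LAMA3 overlapped, at 12.7 CPM per kb each. In control ACHN the order by merged exons was LAMC1, LAMB1, LAMB2, LAMA3, LAMA1, LAMB3, LAMA5, LAMA2 and LAMA4, again without overlap between neighbours. By coding transcript its middle was reordered, with LAMA1 (19.3 CPM per kb) above LAMB2 (18.0) and LAMA3 (16.9), also without overlap. In the single control library of 786-O it was LAMC1, LAMB3, LAMA5, LAMA3, LAMB2, LAMB1, LAMA2, LAMA1 and LAMA4, with no replicate to set the spread.

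As shares of the 5 α chains per kb of merged exon, 786-O used LAMA5 (48.9%) and LAMA3 (45.0%), with 5.93% LAMA2. Per kb of coding transcript these were level, at 44.1% and 44.2%, and LAMA2 made up 11.4%. Control ACHN used LAMA3 (49.0% ± 0.501, SD, n = 3) and LAMA1 (46.4% ± 0.438). The order of this pair depends on the length, since per kb of coding transcript LAMA1 made up 51.2% ± 0.437 and LAMA3 44.8% ± 0.492. Control A-498 spread over 4 chains, with LAMA1 at 36.7% ± 0.480 (SD, n = 2), LAMA3 at 27.2% ± 0.695, LAMA4 at 22.5% ± 0.416 and LAMA5 at 13.4% ± 0.691. With the mimic the A-498 make-up shifted: LAMA1 went to 26.2% ± 0.328 and LAMA4 to 15.2% ± 0.105, while LAMA3 went to 34.7% ± 0.878 and LAMA5 to 23.8% ± 1.08. These shifts were wider than the spread between replicates, and no test was made of them, since an exact permutation test of 2 libraries against 2 cannot give a p under 0.05. Per kb of coding transcript the A-498 shifts were of like size, with LAMA1 going from 39.7% to 29.5% and LAMA5 from 11% to 20.4%. In ACHN the LAMA5 share went from 4.34% ± 0.196 to 3.0% ± 0.226 with the inhibitor (exact permutation test, two-sided p = 0.1, the smallest that 3 against 3 libraries allow). In 786-O the LAMA3 share was 54.3% and the LAMA5 share 39.7% with the mimic.

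Among the β chains the shares per kb of merged exon in control 786-O were 42.8% LAMB3, 29.5% LAMB2 and 27.7% LAMB1, and with the mimic LAMB3 was at 23.1%. In A-498 they were 38.3% LAMB2, 32.2% LAMB1 and 29.5% LAMB3 in the controls, and LAMB3 was at 26.6% ± 0.585 (SD, n = 2) with the mimic. ACHN was led by LAMB1, at 65.8% ± 0.360 (SD, n = 3) in the controls and 65.9% ± 1.5 with the inhibitor, and LAMB3 made up only 5.65% ± 0.282 and 5.20% ± 0.110. Per kb of coding transcript LAMB1 led the β chains in every group, at 52.7% and 59.7% in 786-O, 57.6% and 59.5% in A-498, and 84.2% and 84.3% in ACHN, so the leading β chain of 786-O and A-498 depends on which length is used.

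**Figure D3:**
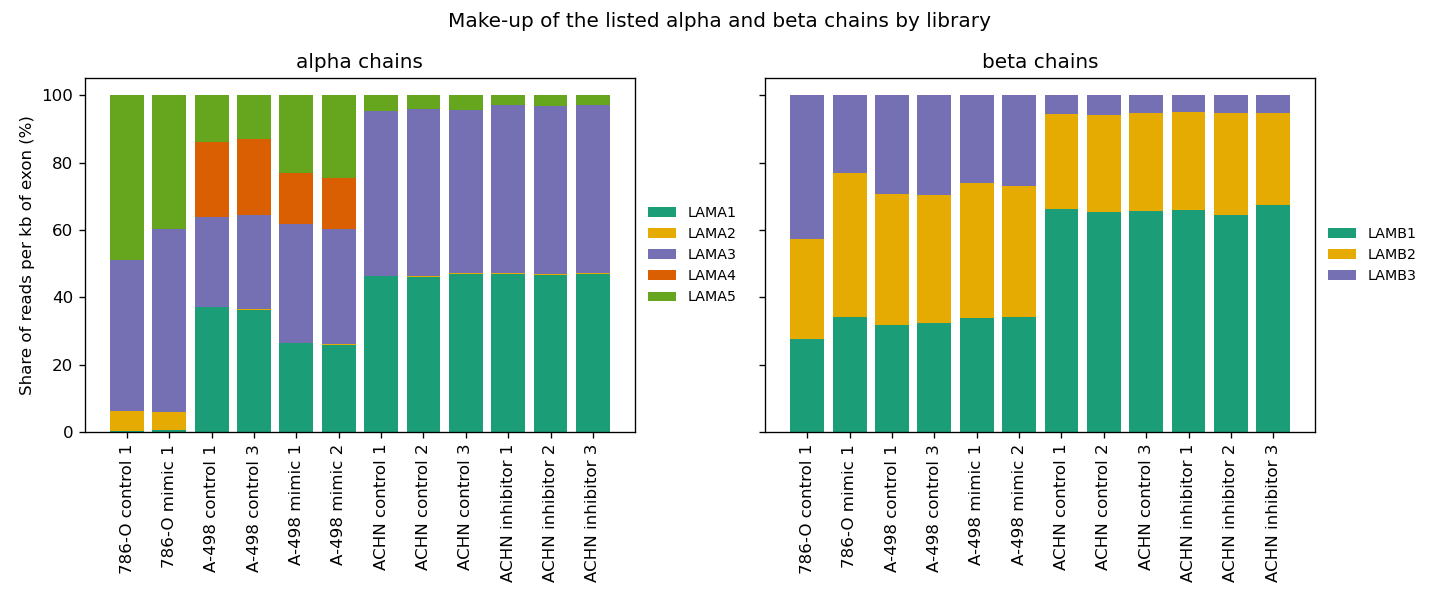
Share of each gene among the 5 α chains (left) and the 3 β chains (right) in each library, as a percentage of reads per kb of merged exon (bars add to 100%). Among the α chains, 786-O is mostly LAMA5 and LAMA3, with 5.93% LAMA2 in the control. ACHN is mostly LAMA3 and LAMA1, with 4.34% LAMA5 in the controls. A-498 is the only line with a sizeable share of LAMA4 (22.5% in the controls, 15.2% with the mimic).

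Which trimers each line had transcripts for was read from these levels, for the 10 combinations of an α chain with β1 or β2 and γ1, calling a chain present at 1 CPM per kb or more in every library of the group. This says that the RNAs were there together, not that the protein was made. Both 786-O groups had 6 combinations, laminin-211, 221, 311, 321, 511 and 521. Both A-498 groups had 8, lacking only the LAMA2 combinations 211 and 221. Control ACHN had 6, laminin-111, 121, 311, 321, 511 and 521. With the inhibitor ACHN had 4, because LAMA5 went from 1.10 to 0.817 CPM per kb, just across the threshold, and laminin-511 and 521 dropped out. This step depended on the threshold: at 0.1 CPM per kb both ACHN groups had 6 combinations and at 5 CPM per kb both had 4. In 786-O LAMA1 was at 0.0708 CPM per kb in the control and 0.142 with the mimic. At a threshold of 0.1 the mimic library therefore also had laminin-111 and 121, and the control did not. At 5 CPM per kb both 786-O groups had 4, without LAMA2, and both A-498 groups had 6, but not the same ones. The controls then lacked laminin-511 and 521 (LAMA5 at 4.85 and 4.29 CPM per kb) and the mimic libraries lacked 411 and 421 (LAMA4 at 3.90 and 4.16 CPM per kb).

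Taken trimer by trimer, the scarcest chain limits how much of that trimer the RNAs could provide. The combinations share LAMC1, LAMB1 and LAMB2, and which chain is scarce for all of them together was not examined. In A-498 and ACHN it was the α chain in every combination present, in controls and treated cells alike, under either length, except that per kb of coding transcript it was LAMB2 (18.0) for laminin-121 in control ACHN. For laminin-111 in A-498 it was LAMA1, at 12.5 CPM per kb of merged exon in the controls and 6.95 CPM per kb with the mimic, whereas for laminin-511 it was LAMA5, at 4.57 and 6.33 CPM per kb. In ACHN the level of LAMA1, which limited laminin-111, was 11.8 CPM per kb in the controls and 12.7 CPM per kb with the inhibitor, while LAMC1 went from 88.8 to 183 CPM per kb. In control 786-O the scarcest chain per kb of merged exon was LAMB1 for laminin-311 and 511 (13 CPM per kb) and LAMB2 for laminin-321 and 521 (13.8 CPM per kb), whereas per kb of coding transcript it was LAMA3 for 311 and LAMA5 for 511 (21.1 CPM per kb each). With the mimic it was LAMA5 in laminin-511 and 521 under either length, at 8.65 CPM per kb of merged exon.

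LAMC1 changed by more than LAMB1 and LAMB2 in each line, so the balance between γ and β RNA shifted. This comparison was chosen after the values were seen. The reads of LAMC1 per read of LAMB1 numbered 2.64 in control and 1.05 in mimic 786-O. In A-498 they went from 0.973 ± 0.0136 (SD, n = 2) to 0.715 ± 0.00709. In ACHN they went from 1.18 ± 0.0282 (SD, n = 3) to 1.96 ± 0.0159 with the inhibitor, 1.67 times the control value (exact permutation test, two-sided p = 0.1, the smallest possible). Set against LAMB1 and LAMB2 together per kb of merged exon, LAMC1 was at 2.81 and, with the mimic, 1.03 in 786-O, at 0.978 and 0.730 in A-498, and at 1.80 and, with the inhibitor, 3.0 in ACHN. Per kb of coding transcript the same ratios were 1.35 and 0.515, 0.483 and 0.358, and 0.723 and 1.20, so the size of the shift was kept and the level was not.

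**Figure D4:**
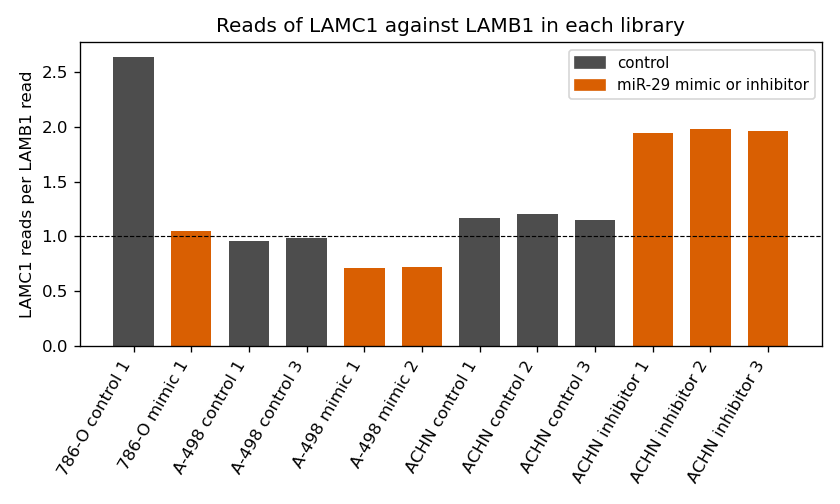
Reads of LAMC1 for each read of LAMB1 in each of the 12 libraries (bars from 0), with controls in grey, mimic or inhibitor libraries in orange and a dashed line at a ratio of 1. The ratio is lower with the mimic (2.64 to 1.05 in 786-O, 0.973 to 0.715 in A-498) and higher with the inhibitor (1.18 to 1.96 in ACHN), with no overlap in the replicated lines.

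The 9 genes together took 0.157% of gene reads in control 786-O and 0.0861% with the mimic. In A-498 the share went from 0.187% ± 0.00406 (SD, n = 2) to 0.129% ± 0.00188, 0.692 times the control. In ACHN it went from 0.190% ± 0.00399 (SD, n = 3) to 0.288% ± 0.00865, 1.52 times the control (exact permutation test, two-sided p = 0.1). Without LAMC1, treated cells had 0.693 times the control share in 786-O, 0.750 times in A-498 and 1.17 times in ACHN. LAMC1 alone made up 39.7% ± 0.506 of the laminin reads in control ACHN and 53.5% ± 0.229 with the inhibitor.

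The proteins that laminins meet outside the chain were read as 3 lists, also drawn up with earlier results of these data known. Their counts are to be read against the shares over all genes given above, 27.0% lower and 25.5% higher in A-498, 14.4% lower and 17.3% higher in ACHN, and 51.0% under the control in 786-O. Of 7 laminin receptor genes, 3 were called lower and 2 higher in A-498, 3 lower and 3 higher in ACHN, and 4 were under their control in 786-O. ITGB1, the β1 integrin subunit, had log2 changes of -1.70 in A-498 (edgeR adjusted p = 8.05e-14), 0.18 in ACHN (adjusted p = 0.000622) and -1.05 in 786-O. ITGA6, the α6 subunit of laminin-binding integrins, had -0.78 (edgeR adjusted p = 5.84e-09), 0.33 (adjusted p = 1.44e-05) and -1.37. ITGB4, the β4 subunit of hemidesmosomes, had -0.51 in ACHN (edgeR adjusted p = 0.000436) and 1.52 in 786-O, and 0.65 in A-498, where it was not called (adjusted p = 0.204). Its reads were few in 786-O (43 in the control and 128 with the mimic) and in A-498 (12 to 26 a library).

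Of 8 basement membrane partners, 3 were called lower and 3 higher in A-498. In ACHN 1 was lower and 4 were higher of 7 tested, and in 786-O 6 of 7 were under their control. The type IV collagen chains COL4A1 and COL4A2, which form the second network of the basement membrane, had log2 changes of -2.44 and -1.75 in A-498 (edgeR adjusted p of 1.59e-14 and 6.26e-13), 1.59 and 0.49 in ACHN (1.62e-13 and 3.47e-05), and -2.42 and -1.94 in 786-O. The COL4A1 estimates were larger in size than those of LAMC1 in each line, a difference that was not tested. HSPG2, the proteoglycan perlecan, had 0.16 in A-498 (edgeR adjusted p = 0.0451), -0.26 in ACHN (adjusted p = 0.00289) and -0.92 in 786-O. NID1, with no value in 786-O (2 reads in the control, 0 with the mimic), had -2.66 in A-498 (edgeR adjusted p = 7.01e-14) and 0.80 in ACHN (adjusted p = 9.09e-10). COL15A1, not tested in ACHN, had 2.60 in A-498 (edgeR adjusted p = 0.000287) and 0.13 in 786-O. Its A-498 reads were few, 3 to 5 in the controls and 24 to 29 with the mimic. Of 6 netrins and other laminin-type chains, 2 were lower and 2 higher in A-498, 1 lower and 2 higher in ACHN, and 1 of 4 was under its control in 786-O. NTNG2, a membrane-bound netrin, had -1.37 (edgeR adjusted p = 3.74e-06), 0.76 (adjusted p = 0.0350) and -1.66 in A-498, ACHN and 786-O. In ACHN it had only 13 to 30 reads in the controls and 47 to 49 with the inhibitor. NTN1 was not called in A-498 (0.21, edgeR adjusted p = 0.476) or ACHN (0.10, adjusted p = 0.489). Its 786-O log2 ratio was 1.03, from 50 reads in the control and 105 with the mimic. NTNG1 had 0.31 (edgeR adjusted p = 0.00334), -0.06 (adjusted p = 0.704) and 0.70.

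The 3 genes whose log2 CPM was most like that of LAMC1 over the 12 libraries, out of 9922 genes, were ENTPD7 (Pearson r 0.989), TDG (0.985) and CSGALNACT2 (0.984). The libraries fall into 3 lines and share treatments, so r is given as a description. Their log2 changes in A-498, ACHN and 786-O were -0.99, 1.38 and -1.44 for ENTPD7, -1.16, 1.14 and -1.11 for TDG, and -1.21, 0.77 and -1.13 for CSGALNACT2. Of the laminin genes LAMB1 was the most like LAMC1 (r 0.820), followed by LAMA3 (0.666) and LAMA1 (0.419). LAMB2 was near 0 (r -0.12), and LAMB3 (-0.62) and LAMA5 (-0.78) were negative, although LAMB2 and LAMB3 were called in the same direction as LAMC1 within A-498 and within ACHN.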

How the data were processed

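RNA was ribosome-depleted and sequenced from stranded libraries. Per the labels and the study's methods, reads were aligned to GRCh38 with HISAT2 and counted per Ensembl gene, on the reverse strand, with HTSeq-count; versions of these tools are not given in the sources used here. Raw counts per gene were deposited by the authors without normalisation, as 58051 genes and 5 summary lines a library, and the summary lines (37.2% to 48.0% of reads) were left out. The authors' DESeq2 tables hold their own comparisons and were not used. The study set further A-498 libraries aside as possibly mislabelled, and those were not analysed here.

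Symbols came from GENCODE v44 (56948 genes matched). CPM was computed on reads in genes, with TMM factors estimated within each line, so CPM levels were not adjusted between lines. The main test was edgeR's quasi-likelihood F test (edgeR 4.0.16, R 4.3.3, TMM, filterByExpr, Benjamini-Hochberg adjustment over all genes tested, threshold 0.05), in each line by itself and without a block. 786-O was described by log2 ratios (TMM, prior count 2, at least 10 reads over its libraries), with no p-value. Replicates are separate samples per the labels and every replicate pair differed by more than counting error. Replicates varied by 3.83% (A-498) and 5.25% (ACHN) as edgeR's biological coefficient of variation. Same-numbered ACHN libraries did not deviate together (r from -0.0504 to 0.0418). Intervals cover counting error only, since they were formed from read counts with no term for the spread between replicates. No molecular identifiers were used, so duplicate reads could not be set apart and the intervals may be too narrow even for counting error.

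The 9 genes and the 3 lists were chosen with earlier results of these data known. All 9 are named, and from each list the 3 genes with the largest mean absolute log2 change among those with a value in all 3 lines. NID1 and COL15A1 are given besides, although each lacked a value in a line. Alternatives were library size and RLE scaling, no filter, DESeq2 1.42.0, leaving out each library, a replicate block, a fixed coefficient of variation, other thresholds of presence and coding transcript length. Scripts were tested on simulated data.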

Additional observations from a re-analysis of the deposited data

Results flagged for a closer look

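The edgeR interaction test called 7 of the 9 laminin genes as responding differently to the mimic in A-498 and 786-O, 4 lower and 3 higher, where 13.2% of the 22587 genes tested were called lower and 16.5% higher. The spread in this test came from A-498 only, and with a coefficient of variation of 0.2 in its place 0 of the 9 were called, with 2 at an unadjusted p under 0.05. As log2 change in 786-O minus that in A-498, the differences were 1.90 for LAMA1, 0.54 for LAMB2 and 0.28 for LAMB1, and -1.39 for LAMA5, -0.70 for LAMB3, -0.61 for LAMC1 and -0.33 for LAMA3. Adjusted p-values were 2.01e-06, 1.86e-05, 0.00218, 2.16e-09, 1.69e-06, 2.58e-07 and 0.000993 in that order. LAMB1 was not called without A-498 mimic 1 (adjusted p = 0.185). The 786-O side rests on 1 library a group, so these calls have no replicate check in that line. LAMA2 (-0.36, edgeR adjusted p = 0.204) and LAMA4 (0.56, adjusted p = 0.658) were not called. LAMA1 and LAMA5 went in opposite directions in these lines, LAMA1 from 50 to 101 reads in 786-O against a fall by 0.85 in A-498.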

How the results depend on the processing

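No laminin gene that was called changed direction under any alternative run. Among those not called, the sign changed for LAMA3 in A-498 with library-size scaling and for LAMA1 between the A-498 and ACHN controls without A-498 control 1. The number of laminin genes called higher in ACHN ranged from 3 to 7 when 1 library was left out, with 3 without control 1 and 3 without control 2, and was 5 with library-size scaling, RLE or DESeq2 and 7 with no filter. With the replicate block it was 6, with LAMA1 gained (edgeR adjusted p = 0.0444) and LAMB3 lost (0.0577), and the block changed no other laminin call. The ACHN libraries share only a number: 2 of 6 correlated best with their own, and the A-498 groups share only number 1. ACHN LAMB3 was also lost with library size (0.0594) and RLE (0.0502), and LAMA1 was gained with no filter (0.0291) and DESeq2 (0.042). In A-498 LAMA2 was called with no filter (edgeR adjusted p = 0.0439), without control 1 (0.00214) and without mimic 2 (0.0381). For the difference between 786-O and A-498, a coefficient of variation of 0.2 left 0 laminin genes called lower and 0 higher, against 4 and 3 with the estimated spread, with 2 at an unadjusted p under 0.05, LAMA2 was gained without A-498 control 3 (0.00227), and scaling by library size moved the share of all calls that were lower from 44.4% to 58.4%. LAMC1 stayed called in A-498 and ACHN under every alternative, with a log2 change between -1.0 and -0.90 in A-498 and between 1.02 and 1.06 in ACHN. With 1 library a group, 786-O gives no replicate error, and LAMA4 in 786-O and ACHN and LAMA2 in A-498 and ACHN are limited by low counts.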
